A study of Mus musculus with 16 samples.

Results

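The genes described here make the immunoproteasome and load its peptides onto MHC class I molecules. They are the inducible proteasome subunits Psmb8, Psmb9 and Psmb10, the proteasome activator subunits Psme1 and Psme2, the peptide transporter genes Tap1 and Tap2, the tapasin gene Tapbp, the beta-2-microglobulin gene B2m and the class I heavy chain gene H2-K1. Of the 10 genes listed, 9 had a probe set that the array annotation assigns to that gene alone, out of 18193 genes so represented. The only probe set for Psme2 is shared with its near-identical relative Psme2b, so no value is given for Psme2. Each of the others is represented by its brightest probe set, judged by the average of all 16 arrays. All 9 reached log2 5 on 2 or more arrays, the condition for testing, as did 7823 genes in all. Psmb9 reached it on quiescent, culture and coculture arrays and stayed under log2 5 on every injury array.

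Each array held RNA of hepatic stellate cells, the vitamin A storing pericytes of the liver that turn into matrix-producing myofibroblasts when the liver is injured. The donors were male Balb/c mice aged 8 to 10 weeks, and every preparation went through a density gradient and magnetic removal of F4/80-bearing macrophages. Quiescent cells (5 arrays) came from normal mice and had been on plastic for 24 h when lysed. Culture cells (3 arrays) were activated by 5 days on plastic in 10% fetal bovine serum. Coculture cells (2 arrays, replicates 2 and 3) had the same 5 days in serum while sharing medium, across a transwell insert, with Kupffer cells, the macrophages of the liver. A coculture sample that would make 3, by the design text, is not analysed here. Bile duct ligation cells (3 arrays) came from mice whose common bile duct had been tied for 15 days, a model of cholestatic fibrosis. CCl4 cells (3 arrays) came from mice given 4 intraperitoneal injections of carbon tetrachloride at 0.5 µl per g, a toxin that kills hepatocytes. Cells from both injuries were plated for 24 h like the quiescent cells, so all groups had been on plastic. Whether the preparations of a group came from different mice is not stated in the labels, so the p-values refer to the scatter among these arrays, part or all of which may be technical.

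Proteasomes cut cytosolic proteins into peptides with the catalytic subunits Psmb5, Psmb6 and Psmb7. Under interferon gamma, cells replace these with Psmb8, Psmb9 and Psmb10, and the particle is then called the immunoproteasome. Psme1 and Psme2 form a ring that opens the particle. Tap1 and Tap2 carry peptides into the endoplasmic reticulum, where tapasin holds the transporter next to an empty heavy chain paired with B2m until a peptide fits. Nlrc5, a transactivator that works on SXY promoter motifs, and the interferon factor Irf1 are known to drive these genes. In liver, stellate cells have been described as able to present antigen to T cells.

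In RefSeq's GRCm38.p6 gene table, Psmb9, Tap1, Psmb8 and Tap2 are consecutive protein-coding genes on chromosome 17, and Tapbp and H2-K1 lie on the same chromosome. Psme1 and Psme2 lie on chromosome 14 with Emc9 between them. B2m lies on chromosome 2 and Psmb10 on chromosome 8. The RefSeq promoter table held 9 of the 10 genes (not Tap2), and sequence upstream of 5 of them is shown because their windows hold letters named for interferon, NF-kappaB or SXY elements, not the same ones in each gene. The mice were Balb/c, whereas this reference is C57BL/6J, so single bases may differ in the animals studied. Capitals mark matches to the motifs described after the sequences, and each runs 5′ to 3′ on the gene's strand.

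B2m, chr2:122147437-122147686, plus strand: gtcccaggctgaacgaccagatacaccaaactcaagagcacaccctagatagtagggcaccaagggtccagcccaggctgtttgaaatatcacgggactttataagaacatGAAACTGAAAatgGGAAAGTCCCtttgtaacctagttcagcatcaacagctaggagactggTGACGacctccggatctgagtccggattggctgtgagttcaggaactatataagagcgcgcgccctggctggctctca
Psmb8, chr17:34197945-34198194, plus strand: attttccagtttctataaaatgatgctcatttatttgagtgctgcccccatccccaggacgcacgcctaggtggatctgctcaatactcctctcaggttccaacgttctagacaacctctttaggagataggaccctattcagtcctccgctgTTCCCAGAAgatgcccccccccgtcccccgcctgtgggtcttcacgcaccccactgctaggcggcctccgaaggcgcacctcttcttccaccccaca
Gap between the divergent starts of Psmb9 and Tap1, chr17:34187331-34187555, strand of Tap1: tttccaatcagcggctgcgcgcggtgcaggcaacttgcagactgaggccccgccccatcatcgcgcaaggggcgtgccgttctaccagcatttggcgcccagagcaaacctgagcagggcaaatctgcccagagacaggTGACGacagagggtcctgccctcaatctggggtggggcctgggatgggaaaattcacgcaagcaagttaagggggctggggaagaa
H2-K1, site only, chr17:34000439-34000468, minus strand: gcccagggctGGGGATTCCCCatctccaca

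Each motif was searched on both strands in the 250 bases before the start, and the motifs were chosen with the sequences in view. GAAANNGAAA, the core of the interferon-stimulated response element, was found in 1 of the 9 genes and in 2.98% of all 32851 windows. The match was in B2m, 139 to 130 bases before the start. TTCNNNGAA, the gamma-activated site, was found in 1 gene, Psmb8, 97 to 89 bases before the start, and in 7.02% of windows. The kappaB consensus matched in B2m (126 to 117 bases before the start) and in H2-K1, where overlapping matches on both strands span bases 111 to 101, against 7.25% of windows. TGACG, the core of the X2 box in the SXY module, was present in B2m, H2-K1, Psme2, Psmb9 and Tap1, 5 of 9 genes, against 17.8% of windows. The Psmb9 and Tap1 matches are the same site in the gap between them, 86 to 82 bases before Tap1. A match is a description of the letters and not evidence of binding.

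In stellate cells from injured livers most of the 9 measured genes were lower than in quiescent cells, and in stellate cells activated on plastic none was called lower. After bile duct ligation 9 of 9 were lower, among them Psmb8, Tap2 and Tap1, by 1.67 to 2.16 on the log2 scale, where 1 is a 2-fold difference. After CCl4 6 of 9 were lower, and Psmb8, Psmb10 and Tap1 were not called. In culture 2 of 9 were higher, Tapbp and B2m, and in coculture 1, Tapbp. The median difference of the 9 genes was -1.12 after bile duct ligation and -0.82 after CCl4, against -0.05 over all tested genes in both. It was -0.04 in culture (-0.05 over all genes) and 0.29 in coculture (-0.04 over all genes). Psmb9 is the 1 gene that entered the test through non-injury arrays only. Over the other 8 genes, 8 were lower after bile duct ligation (median -1.07) and 5 after CCl4 (median -0.81).

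**Figure D1:**
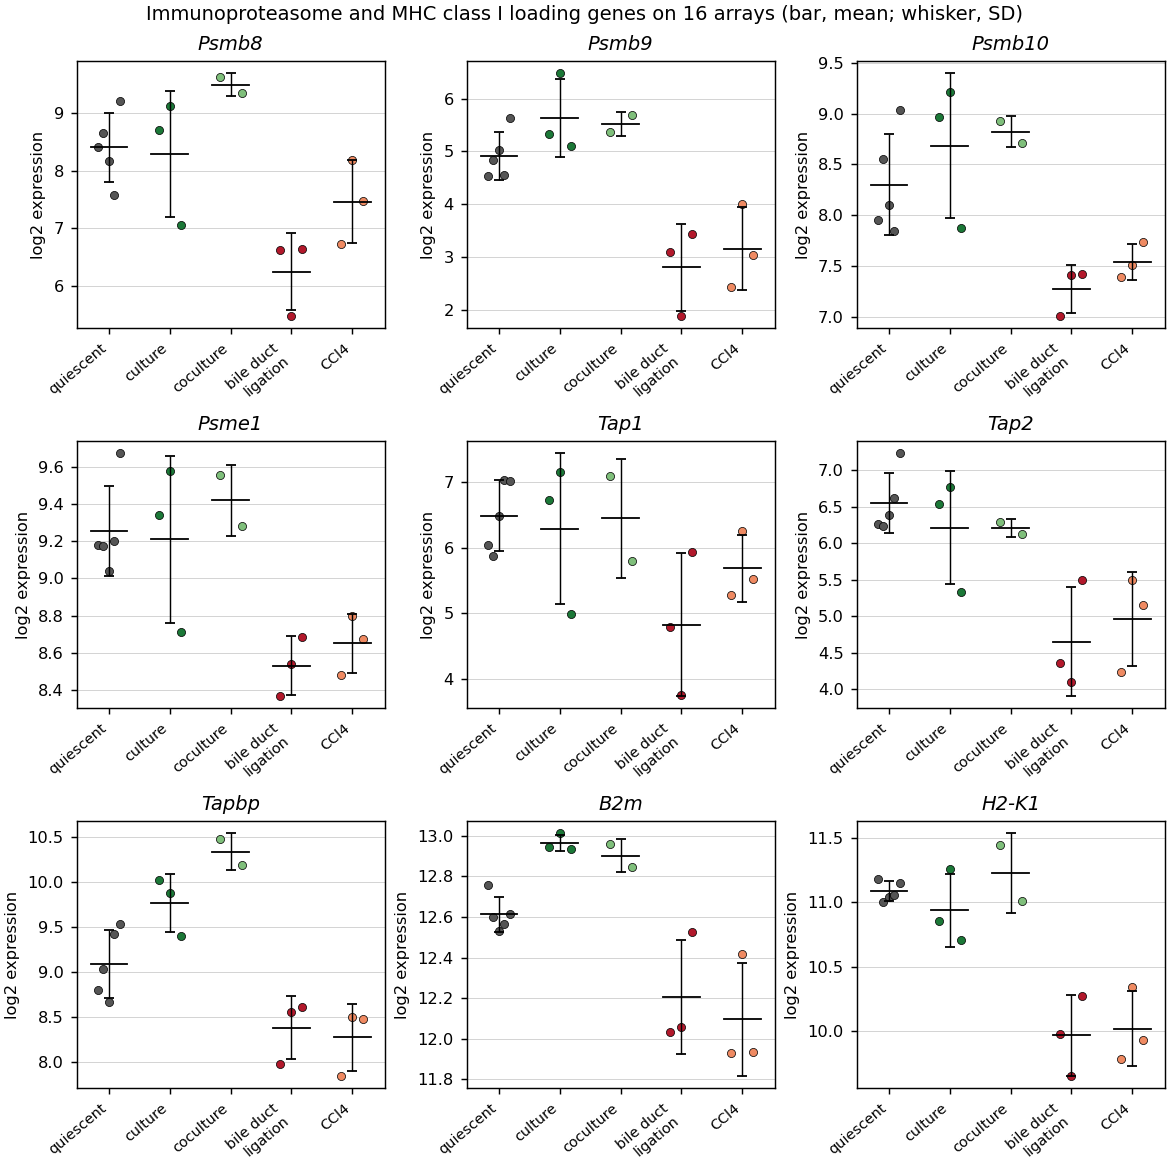
Points are log2 expression values of the 9 genes on each of the 16 arrays (vertical axes, scaled per gene), grouped as quiescent (5), culture (3), coculture (2), bile duct ligation (3) and CCl4 (3), with bars for means and whiskers for standard deviations (SD). Bile duct ligation arrays lie under every quiescent array for each gene but Tap1, and culture replicate 3 is the lowest culture array throughout. How many of all tested genes separate in this way was not counted.

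These counts come from a linear model with 5 group means fitted with limma to all 16 arrays, where a gene was called at a Benjamini-Hochberg adjusted p under 0.05 over the 7823 genes. Of all tested genes, 8.83% were called lower and 8.03% higher after bile duct ligation, and 12.5% lower and 9.51% higher after CCl4. In culture against quiescent cells 18.5% were called higher and 23.5% lower, and in coculture 17.8% and 20.9%. The 2 genes of 9 called in culture and the 1 in coculture are thus close to the share of all genes. The comparisons against quiescent cells share the same 5 arrays. Leaving out bile duct ligation replicate 1 brought its 9 calls down to 4, and leaving out replicate 2 or quiescent replicate 5 to 5, while without CCl4 replicate 1 the 6 CCl4 calls fell to 1.

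Stellate markers were present throughout: 10 or 11 of 12 averaged log2 5 or more in each group, among them Des, Pdgfrb, Hand2 and Lhx2. They also moved with injury: of 11 tested, 2 were called higher and 4 lower after CCl4 (median -1.01) and 2 higher and 2 lower after bile duct ligation (median -0.36), and Lrat, which makes retinyl esters, averaged 5.61 in quiescent cells, 4.78 after bile duct ligation and 3.81 after CCl4. Hepatocyte markers moved with injury. The summed log2 level of 9 of them was 4.64 to 5.49 on quiescent arrays, 7.69 to 9.18 after bile duct ligation and 8.62 to 11.32 after CCl4. After CCl4 Alb, Apoa1, Ttr and Fgb averaged 5 or more. Of these, Apoa1 (3.64, 4.28 and 7.27) and Fgb (4.38, 3.16 and 8.27) passed 5 on CCl4 replicate 3 alone. Of 20 macrophage markers, Cd68 and Lyz2 alone averaged 5 or more in any group, with Adgre1, which encodes the F4/80 antigen, at 1.54 to 2.23. Their summed level ran from 7.0 to 8.15 on quiescent, 6.66 to 6.82 on culture, 8.40 to 8.47 on coculture, 7.24 to 8.96 on bile duct ligation and 7.65 to 8.65 on CCl4 arrays. Lyz2 averaged 2.02 ± 0.24 (SD, n = 5) in quiescent cells, 4.94 ± 0.45 (n = 3) in culture, 5.49 ± 0.02 (n = 2) in coculture, 5.91 ± 1.62 (n = 3) after bile duct ligation and 5.46 ± 1.52 (n = 3) after CCl4. Cd68 went the other way in culture, with arrays at 3.77, 4.88 and 2.57 against 6.06 to 7.77 on quiescent arrays. It read 7.81 and 7.82 in coculture, 5.97, 7.47 and 5.57 after bile duct ligation and 7.71, 6.78 and 6.70 after CCl4. The mesothelial gene Lrrn4 averaged 6.13 ± 2.16 (SD, n = 3) after CCl4 and 1.41 ± 0.33 (n = 5) in quiescent cells, and the cholangiocyte gene Krt19 averaged 5.60 in coculture. No marker of dendritic cells, lymphocytes, neutrophils or endothelium averaged 5 in any group. The part of other cells in the results was not tested, and in bulk RNA fewer cells of a type cannot be told apart from less RNA per cell.

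Psmb8, the inducible subunit that replaces Psmb5, read 8.41, 8.66, 8.17, 7.59 and 9.21 on quiescent arrays 1 to 5. It read 6.63, 5.48 and 6.64 after bile duct ligation, and 6.74, 8.19 and 7.48 after CCl4. The bile duct ligation arrays all lay under the lowest quiescent array, whereas the CCl4 arrays overlapped the quiescent ones. The drop after bile duct ligation was 2.16 ± 0.46 (SE), or 4.46-fold (adjusted p = 0.00433), and the CCl4 difference of -0.94 ± 0.46 was not called (adjusted p = 0.162). Culture arrays read 8.71, 9.12 and 7.05 and coculture arrays 9.64 and 9.36, the latter above every quiescent array. The coculture difference of 1.09 ± 0.53 was not called (adjusted p = 0.114, 95% interval -0.03 to 2.21). From highest to lowest the means ran coculture 9.50, quiescent 8.41, culture 8.30, CCl4 7.47 and bile duct ligation 6.25, and no neighbours in that order that were compared differed past the threshold. A second Psmb8 probe set was near the array background, with a quiescent mean of 2.80. It overlapped the quiescent arrays in every group, with differences of -0.57 after bile duct ligation and 0.63 in coculture.

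Psmb9, which replaces Psmb6 and is divergently transcribed from Tap1, fell after both injuries. Quiescent arrays read 4.54, 4.83, 5.03, 4.56 and 5.63, bile duct ligation arrays 3.10, 1.89 and 3.44, and CCl4 arrays 2.45, 4.02 and 3.03. Each injury array lay under each quiescent array. The drops were 2.11 ± 0.43 (adjusted p = 0.00313) and 1.75 ± 0.43 (adjusted p = 0.0092), and the injury arrays come near the array medians of 2.00 to 2.06, where log2 values depend on the background model. With no filter the calls were kept (adjusted p = 0.00332 and 0.0108), but the sizes carry that dependence. Without CCl4 replicate 1 the CCl4 call was lost (-1.39, adjusted p = 0.0733). Culture arrays (5.34, 6.48 and 5.10) and coculture arrays (5.37 and 5.68) overlapped the quiescent ones, with differences of 0.72 ± 0.43 and 0.61 ± 0.49 that were not called.

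Psmb10, which replaces Psmb7, read 7.96, 8.56, 8.10, 7.84 and 9.04 on quiescent arrays. Bile duct ligation arrays read 7.01, 7.41 and 7.43 and CCl4 arrays 7.39, 7.51 and 7.74, so neither injury overlapped the quiescent group. The drop after bile duct ligation was 1.02 ± 0.29 (adjusted p = 0.025), and it was lost when any 1 of the 3 bile duct ligation arrays or quiescent replicate 2 or 5 was left out (-1.09 to -0.83, adjusted p from 0.0505 to 0.122). The CCl4 difference was -0.75 ± 0.29 and missed the threshold (adjusted p = 0.0769), although it was called without quiescent replicate 4 (-0.87, adjusted p = 0.0444) or culture replicate 3 (-0.75, adjusted p = 0.0305). Culture (8.97, 9.21 and 7.87) and coculture (8.93 and 8.71) overlapped quiescent cells. Leaving out culture replicate 3, by far the lowest of its group, Psmb10 was called higher in culture (0.79, adjusted p = 0.0333).

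The activator subunit Psme1 varied little among quiescent arrays 1 to 4 (9.18, 9.17, 9.04 and 9.20), while replicate 5 read 9.67. It read 8.37, 8.54 and 8.68 after bile duct ligation and 8.48, 8.80 and 8.68 after CCl4. All 6 injury arrays lay under all 5 quiescent arrays. The drops were 0.72 ± 0.18 (adjusted p = 0.0131) and 0.60 ± 0.18 (adjusted p = 0.0292), and the first was lost without bile duct ligation replicate 1 (-0.64, adjusted p = 0.0755). The CCl4 call did not survive leaving out quiescent replicate 5 (-0.50, adjusted p = 0.067), CCl4 replicate 1 (-0.52) or CCl4 replicate 3 (-0.61). Culture arrays read 9.34, 9.58 and 8.71 and coculture arrays 9.55 and 9.28, both groups overlapping quiescent cells, with differences of -0.04 ± 0.18 and 0.17 ± 0.21, neither called.

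The transporter genes gave unlike precision. Tap2 read 6.27, 6.24, 6.39, 6.63 and 7.24 on quiescent arrays, 4.36, 4.10 and 5.50 after bile duct ligation and 4.24, 5.49 and 5.16 after CCl4. Neither injury overlapped the quiescent arrays, and the drops were 1.90 ± 0.39 (adjusted p = 0.00321) and 1.59 ± 0.39 (adjusted p = 0.00905). Without CCl4 replicate 1 the second was not called (-1.22, adjusted p = 0.0753). Culture (6.54, 6.77 and 5.33) and coculture (6.29 and 6.12) had the same mean, 6.21, each 0.34 under the quiescent mean and not called.

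Tap1 was the one gene of the 9 whose bile duct ligation arrays (4.79, 3.75 and 5.93) overlapped the quiescent arrays (6.05, 5.87, 6.49, 7.04 and 7.02). Its drop of 1.67 ± 0.53 passed narrowly (adjusted p = 0.0405) and was lost without bile duct ligation replicate 1 (-1.65, adjusted p = 0.118) or 2 (-1.14, adjusted p = 0.213). It was lost too without quiescent replicate 3, 4 or 5 or CCl4 replicate 3, and with no filter on low values. CCl4 arrays read 5.28, 6.26 and 5.52, and the difference of -0.81 ± 0.53 was not called. Culture arrays were wide apart, at 6.73, 7.16 and 4.98, as were the coculture arrays at 7.10 and 5.80. The 3 other Tap1 probe sets had group means near the array background (quiescent 1.87 and 0.99 for the first pair of them) and showed no group apart from the quiescent arrays.

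Tapbp, which encodes tapasin, moved in opposite directions in the dish and after injury. Quiescent arrays read 8.80, 9.03, 8.66, 9.42 and 9.54, and coculture arrays 10.48 and 10.19, above all of them. The rise in coculture was 1.25 ± 0.27 (adjusted p = 0.00215), and it was called under each of 25 alternative settings. Culture arrays read 10.03, 9.88 and 9.40, of which the last overlapped, with a rise of 0.68 ± 0.23 (adjusted p = 0.0293) that was lost without culture replicate 1 or 2 or quiescent replicate 1 or 3 (0.55 to 0.62). Bile duct ligation arrays read 7.97, 8.56 and 8.61 and CCl4 arrays 7.84, 8.50 and 8.47, all under the lowest quiescent array. The drops were 0.71 ± 0.23 (adjusted p = 0.0481) and 0.82 ± 0.23 (adjusted p = 0.0207). The first passed under 6 of 25 alternatives, with adjusted p from 0.0212 to 0.245, and the second was lost without CCl4 replicate 1 (-0.60, adjusted p = 0.146).

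A second, dimmer Tapbp probe set rose further on plastic, from 3.35 ± 0.16 (n = 5) in quiescent cells to 5.90 ± 0.87 (n = 3) in culture and 6.66 ± 0.81 (n = 2) in coculture, with no overlap. After bile duct ligation it averaged 2.69 and after CCl4 3.12, the latter overlapping the quiescent arrays. With the mean of both probe sets, neither injury difference in Tapbp was called (-0.69, adjusted p = 0.057, and -0.52, adjusted p = 0.131).

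H2-K1, the class I heavy chain, varied little in quiescent cells, with 11.18, 11.00, 11.04, 11.06 and 11.15. It read 9.97, 9.65 and 10.27 after bile duct ligation and 9.78, 10.34 and 9.93 after CCl4. The injury arrays were all lower than the quiescent ones, with drops of 1.12 ± 0.16 (2.18-fold, adjusted p = 0.000225) and 1.07 ± 0.16 (2.10-fold, adjusted p = 0.000332). Both were called under each of 25 alternatives. Culture (10.85, 11.26 and 10.70) and coculture (11.45 and 11.01) overlapped quiescent cells. The 3 other H2-K1 probe sets were also lower on every injury array than on any quiescent array, by 0.89 to 1.32, and 1 of the 3 was also lower on every culture array, by 0.94. All 4 are of a class that can bind related sequences, so other class I heavy chains may contribute to them.

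B2m, the light chain of all class I molecules, read 12.76, 12.60, 12.53, 12.57 and 12.61 in quiescent cells and 12.95, 13.01 and 12.94 in culture, a rise of 0.35 ± 0.12 (adjusted p = 0.0292). Coculture arrays (12.96 and 12.84) also lay above every quiescent array, but the difference of 0.29 ± 0.14 was not called (adjusted p = 0.112). It read 12.03, 12.06 and 12.53 after bile duct ligation and 11.93, 12.42 and 11.94 after CCl4, all under the quiescent arrays, although bile duct ligation replicate 3 equals quiescent replicate 3 to 2 decimals. The drops were 0.41 ± 0.12 (adjusted p = 0.0298) and 0.52 ± 0.12 (adjusted p = 0.0069), the second lost without CCl4 replicate 1 (-0.44, adjusted p = 0.0538). The rise in culture was lost under 8 of 25 alternatives and the drop after bile duct ligation under 7 of 25, including arrays centred on their medians (-0.35, adjusted p = 0.0522). The second B2m probe set gave -0.53 after bile duct ligation and -0.38 after CCl4, where it overlapped the quiescent arrays, and 0.35 in culture and 0.36 in coculture without overlap.

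Arrays of a group tended to rank alike across these genes. Culture replicate 3 was the lowest culture array for 9 of 9 genes and CCl4 replicate 1 the lowest CCl4 array for 9 of 9. Bile duct ligation replicate 3 was the highest of its group for 9 of 9, CCl4 replicate 2 for 8, culture replicate 2 for 8, and quiescent replicate 5 for 6. Coculture replicate 2 exceeded replicate 3 in 8 of 9. How often the same arrays ranked lowest or highest over all tested genes was not counted, so the ranking may not be particular to these 9. Leaving out culture replicate 3, quiescent replicate 4 and CCl4 replicate 3 together, chosen after seeing the data, left 1 gene called in culture, 1 in coculture, 8 after bile duct ligation and 7 after CCl4.

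The 2 injury models were then compared with each other. None of the 9 genes was called between CCl4 and bile duct ligation (limma), where 0.141% of all genes were called higher and 0.0256% lower. At an unadjusted p under 0.05 there was 1, Psmb8, with a difference of 1.22 ± 0.51 (95% interval 0.12 to 2.31, limma adjusted p = 0.308). For H2-K1 the difference was 0.05 with an interval of -0.34 to 0.44, for B2m -0.11 (-0.40 to 0.18), and for Psme1 0.12 (-0.31 to 0.56). For Tap1 the interval ran from -0.39 to 2.12, a wide range that leaves the difference unsettled.

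Coculture with Kupffer cells was compared with culture alone. None of the 9 genes was called (limma), 0 had an unadjusted p under 0.05, and their median difference was 0.16 against 0.01 over all genes, of which 8.37% were called higher and 7.03% lower. Psmb8 (1.20 ± 0.58, 95% interval -0.02 to 2.43, adjusted p = 0.18) and Tapbp (0.57 ± 0.29, -0.05 to 1.19, adjusted p = 0.211) had the smallest p-values. Tap2 differed by 0.00 ± 0.48.

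Activation on plastic was set directly against activation in the animal, taken as the mean of both injury groups. In culture 8 of 9 genes were higher than in the injury mean, where 25% of all genes were called higher and 25.9% lower. In coculture 8 of 9 were higher, against 15% of all genes higher and 15.3% lower. Leaving aside Psmb9, whose injury values are near the array medians, 7 of 8 were higher in each. Psmb8 was higher by 1.44 ± 0.45 (adjusted p = 0.0142) and 2.64 ± 0.51 (adjusted p = 0.00164) in culture and coculture. Tapbp was higher by 1.44 and 2.01, H2-K1 by 0.95 and 1.24 and B2m by 0.81 and 0.75. The Psmb8 call in culture was lost without culture replicate 1 (1.23, limma adjusted p = 0.0648) or 2 (1.02, adjusted p = 0.104). It was lost too with the mean of all probe sets (0.82, adjusted p = 0.0774). Without culture replicate 2 the culture count fell from 8 to 6. Tap1 was not called in either (1.04 ± 0.51, adjusted p = 0.104, and 1.19 ± 0.59, adjusted p = 0.139), although in culture it was without culture replicate 3 (1.69, adjusted p = 0.0146). Without coculture replicate 2 the coculture count fell from 8 to 5.

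**Figure D2:**
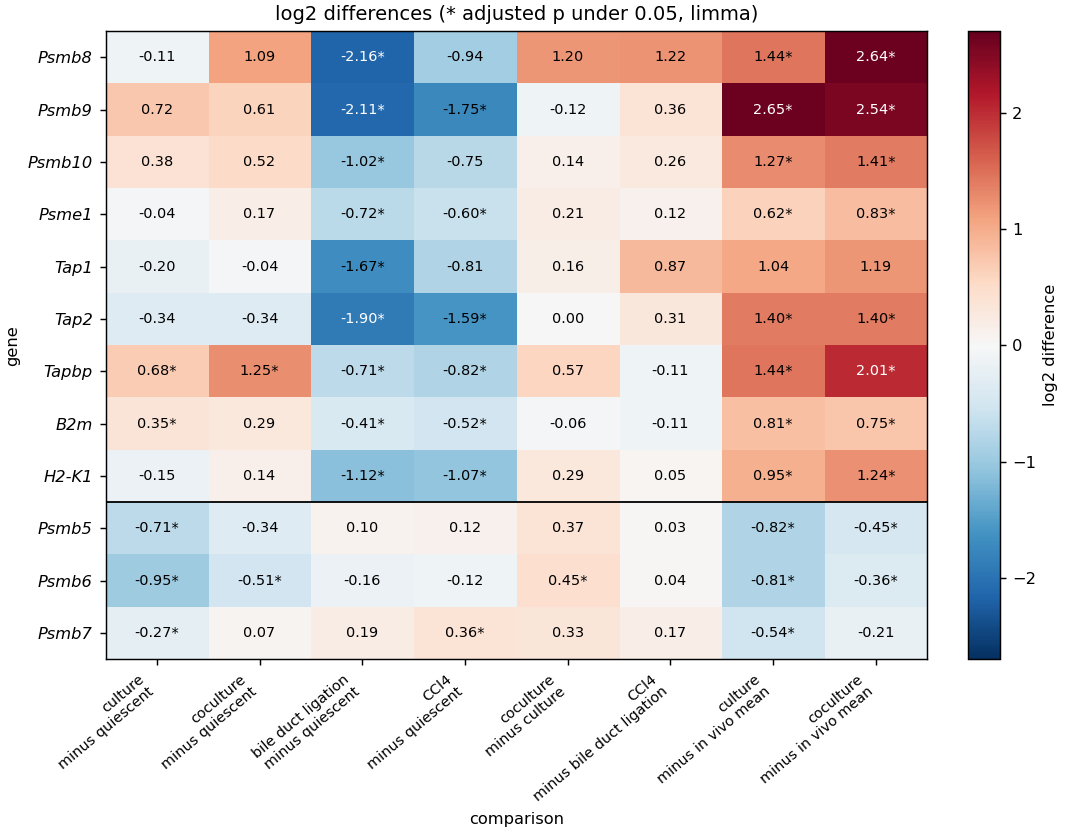
Each cell gives the log2 difference of a gene (rows) in a comparison (columns) from limma, red where the first group is higher and blue where it is lower, with an asterisk at an adjusted p under 0.05. The 9 genes are blue in both injury columns, while Psmb5, Psmb6 and Psmb7 under the line lie between -0.16 and 0.36 there and are blue in culture.

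The constitutive subunits that the inducible ones replace showed another pattern. Psmb5 stood at 10.08 ± 0.19 (SD, n = 5) in quiescent cells and at 10.17 ± 0.06 and 10.20 ± 0.15 (n = 3 each) after the injuries, and fell by 0.71 ± 0.14 (SE, adjusted p = 0.000736) in culture. Psmb6 fell by 0.95 ± 0.10 in culture (adjusted p = 6.23e-06) and by 0.51 ± 0.12 in coculture (adjusted p = 0.00349), and was higher in coculture than in culture by 0.45 ± 0.13 (adjusted p = 0.0271). Psmb7 fell by 0.27 ± 0.09 in culture (adjusted p = 0.0303) and rose by 0.36 ± 0.09 after CCl4 (adjusted p = 0.0124). None of the 3 was called after bile duct ligation.

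The log2 difference between an inducible subunit and the one it replaces was taken on each array, and its mean compared with quiescent cells by two-sided exact permutation tests, 12 in all. For 3 arrays against 5 the smallest p possible is 0.0179 and for 2 against 5 it is 0.0476. Psmb9 relative to Psmb6 shifted up by 1.68 in culture and down by 1.95 after bile duct ligation and 1.63 after CCl4, each without overlap (exact p = 0.0179, adjusted p = 0.0358). In coculture the shift of 1.11 was also without overlap (exact p = 0.0476, adjusted p = 0.0816). Psmb9 stayed under log2 5 on every injury array, so its injury shifts depend on the background model. In culture and coculture Psmb6 itself was called lower by limma, while Psmb9 itself was not called.

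Psmb10 relative to Psmb7 shifted down by 1.21 after bile duct ligation and by 1.11 after CCl4 (exact permutation, adjusted p = 0.0358 each). It differed by 0.65 in culture and 0.46 in coculture, both overlapping quiescent cells. Psmb8 relative to Psmb5 shifted down by 2.25 after bile duct ligation (exact permutation, adjusted p = 0.0358). The other Psmb8 shifts did not pass: 1.43 in coculture, without overlap (exact permutation, adjusted p = 0.143), 0.60 in culture and -1.06 after CCl4. With 1 array fewer, none of these tests could be called, since the smallest p rises.

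**Figure D3:**
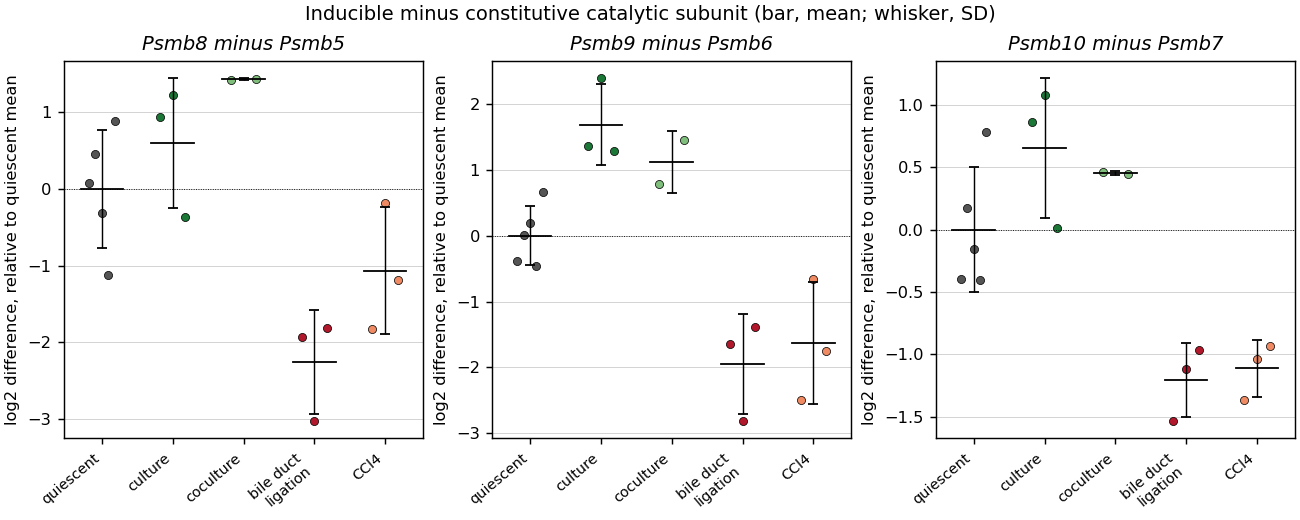
Points are the log2 difference between an inducible and a constitutive subunit on each array, shown relative to the quiescent mean (dotted line), with bars for group means and whiskers for SD. For Psmb9 and Psmb10 all 6 injury arrays lie under all 5 quiescent arrays, and for Psmb9 all 3 culture arrays lie above them. Psmb9 read under log2 5 on every injury array.

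The rest of the proteasome did not follow the inducible subunits. Of 31 tested genes of the constitutive core and cap, 0 were called in either direction after bile duct ligation (limma; 1 higher and 2 lower at an unadjusted p under 0.05), and 3 were higher and 0 lower after CCl4 (7 and 0 unadjusted; 6 called higher with arrays centred on their medians). In culture 25 were lower and 1 was higher, with a median of -0.59, and in coculture 10 were lower and 2 higher (median -0.18). The largest drops in culture were those of the cap subunits Psmd3 (1.45 ± 0.23) and Psmd2 (0.97 ± 0.12) and the core subunit Psmb3 (1.11 ± 0.14), and the cap subunit Psmd8 was the gene that rose (1.06 ± 0.21). Against culture, 12 of the 31 were higher in coculture, by 0.38 to 0.57, a count that was 7 with arrays centred on their medians and 3 with the 3 arrays named above left out. Psme3, which forms a different activator ring in the nucleus, rose by 0.49 ± 0.15 after bile duct ligation (adjusted p = 0.0332) and by 0.69 ± 0.15 after CCl4 (adjusted p = 0.00377), opposite to Psme1. In culture it fell by 0.78 ± 0.15 (adjusted p = 0.000689).

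Further along the pathway, Erap1, the aminopeptidase that trims peptides in the endoplasmic reticulum, followed the loading genes after injury. It fell from 7.55 ± 0.19 (SD, n = 5) to 6.08 ± 0.17 after bile duct ligation and 6.41 ± 0.42 after CCl4 (n = 3 each), by 1.47 ± 0.19 (adjusted p = 8.06e-05) and 1.14 ± 0.19 (adjusted p = 0.000648). In coculture it rose by 0.75 ± 0.22 (adjusted p = 0.0135) and was 1.23 ± 0.24 higher than in culture (adjusted p = 0.00282). Tapbpl, which encodes the tapasin-related editor TAPBPR, rose by 1.69 ± 0.32 in coculture (adjusted p = 0.000943). The chaperone gene Calr rose by 0.69 ± 0.21 there and by 0.75 ± 0.19 after bile duct ligation. Thop1, a cytosolic peptidase that destroys peptides, fell by 2.14 ± 0.31 in culture and 1.84 ± 0.35 in coculture. Of the 10 trimming and chaperone genes tested, 1 was higher and 1 lower after bile duct ligation, 1 higher and 2 lower after CCl4, 1 higher and 3 lower in culture and 5 higher and 2 lower in coculture. Of all genes, 8.03% were higher and 8.83% lower after bile duct ligation, and 9.51% and 12.5% after CCl4. The shares were 18.5% and 23.5% in culture and 17.8% and 20.9% in coculture. The injury counts of this list are thus close to the share of all genes.

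Of 20 other class I genes listed, 6 could be tested. After bile duct ligation 4 were lower: Mr1 (-1.44 ± 0.30), which presents vitamin metabolites, Hfe (-1.40 ± 0.36), an iron regulator, H2-D1 (-1.15 ± 0.20), a classical heavy chain, and H2-M3 (-1.07 ± 0.21), which presents formylated peptides. After CCl4 3 were lower, Hfe (-1.13 ± 0.36), H2-D1 (-1.09 ± 0.20) and H2-M3 (-0.81 ± 0.21). In culture and coculture 3 were higher and 0 lower, Mr1 (2.30 and 2.05), Hfe (2.12 and 2.01) and the immunoglobulin receptor Fcgrt (1.47 and 0.59). H2-D1 stayed at 11.63 ± 0.30 and 11.83 ± 0.28 there, against 11.87 ± 0.18 in quiescent cells, and was not called. Of 12 class II pathway genes 1 passed the filter, the protease gene Ctss, which rose by 4.36 ± 0.57 after bile duct ligation and 2.73 ± 0.57 after CCl4. Ctss entered the test through injury arrays and coculture replicate 2 (5.68) only, so the filter favoured a rise. Its quiescent arrays read 2.33 to 3.99, so the size of the rise depends on the background model. H2-Aa averaged 1.84 to 2.28 and Cd74 1.57 to 2.28 over the groups, near the array background.

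Among the regulators, Nlrc5 read 4.39, 4.56, 4.47, 4.42 and 5.78 on quiescent arrays, 2.16, 3.07 and 3.06 after bile duct ligation and 3.73, 4.12 and 4.10 after CCl4. Both injuries lay under the quiescent arrays, and the drop was called after bile duct ligation (-1.96 ± 0.37, adjusted p = 0.00185) and not after CCl4 (-0.74 ± 0.37, adjusted p = 0.17). Like Psmb9, Nlrc5 entered the test through quiescent, culture and coculture arrays only. Its bile duct ligation values come near the array medians, so the size of the drop depends on the background model. Irf1 overlapped in every group, with differences of -0.26 ± 0.54 and -0.70 ± 0.54 after the injuries, 0.83 ± 0.54 in culture and 0.22 ± 0.62 in coculture. The interferon gamma receptor gene Ifngr2 rose by 1.30 ± 0.24 in culture (adjusted p = 0.000573) and 1.22 ± 0.27 in coculture (adjusted p = 0.00289). Ifngr1 fell by 0.69 ± 0.24 after CCl4, just under the threshold (adjusted p = 0.0498). Of 13 regulators tested 3 were lower after CCl4, against 12.5% of all genes. That count was 2 with arrays centred on their medians or with the 3 arrays named above left out.

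Jak1, a kinase of both interferon receptors, fell by 0.69 ± 0.16 in culture, 0.72 ± 0.18 in coculture and 0.56 ± 0.16 after CCl4. Jak2, the second kinase of the gamma receptor, fell by 1.03 ± 0.26 in culture and 0.91 ± 0.26 after bile duct ligation. The type I receptor gene Ifnar2 rose by 0.87 ± 0.16 in coculture and fell by 0.47 ± 0.14 after CCl4, while Ifnar1, Irf2, Irf9 and Stat2 were not called against quiescent cells in any group. Rfxank, a subunit of the factor that binds the X box, rose by 1.34 ± 0.25 after bile duct ligation and 0.78 ± 0.25 after CCl4. Rfx5 and Socs1 stayed below the filter.

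Other interferon-induced genes were counted in the same way. Of 9 tested genes of the interferon gamma type (guanylate-binding proteins, immunity-related GTPases and Cxcl10), 7 were higher in culture (median 1.68) and 7 in coculture (median 2.18). Among them were Cxcl10 (4.42 ± 0.88 in culture), Iigp1 (2.02 ± 0.59) and Gbp6 (2.01 ± 0.53). After bile duct ligation 4 were lower, Gbp6 (-2.50 ± 0.53), Gbp3 (-1.93 ± 0.56), Iigp1 (-1.78 ± 0.59) and Gbp7 (-1.52 ± 0.42), and after CCl4 0 were called by limma (median -0.36, 1 lower at an unadjusted p under 0.05). Of 13 tested type I interferon genes 5 were higher in culture and 7 in coculture, 1 was lower after bile duct ligation, and 0 were called after CCl4 (limma, 0 also at an unadjusted p under 0.05). Of all genes, 18.5% were called higher in culture, 17.8% higher in coculture and 8.83% lower after bile duct ligation. The 1 type I gene of 13 lower after bile duct ligation is close to that share. With the same 3 arrays left out, 11 of the 13 were higher in culture and 3 lower after bile duct ligation.

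**Figure D4:**
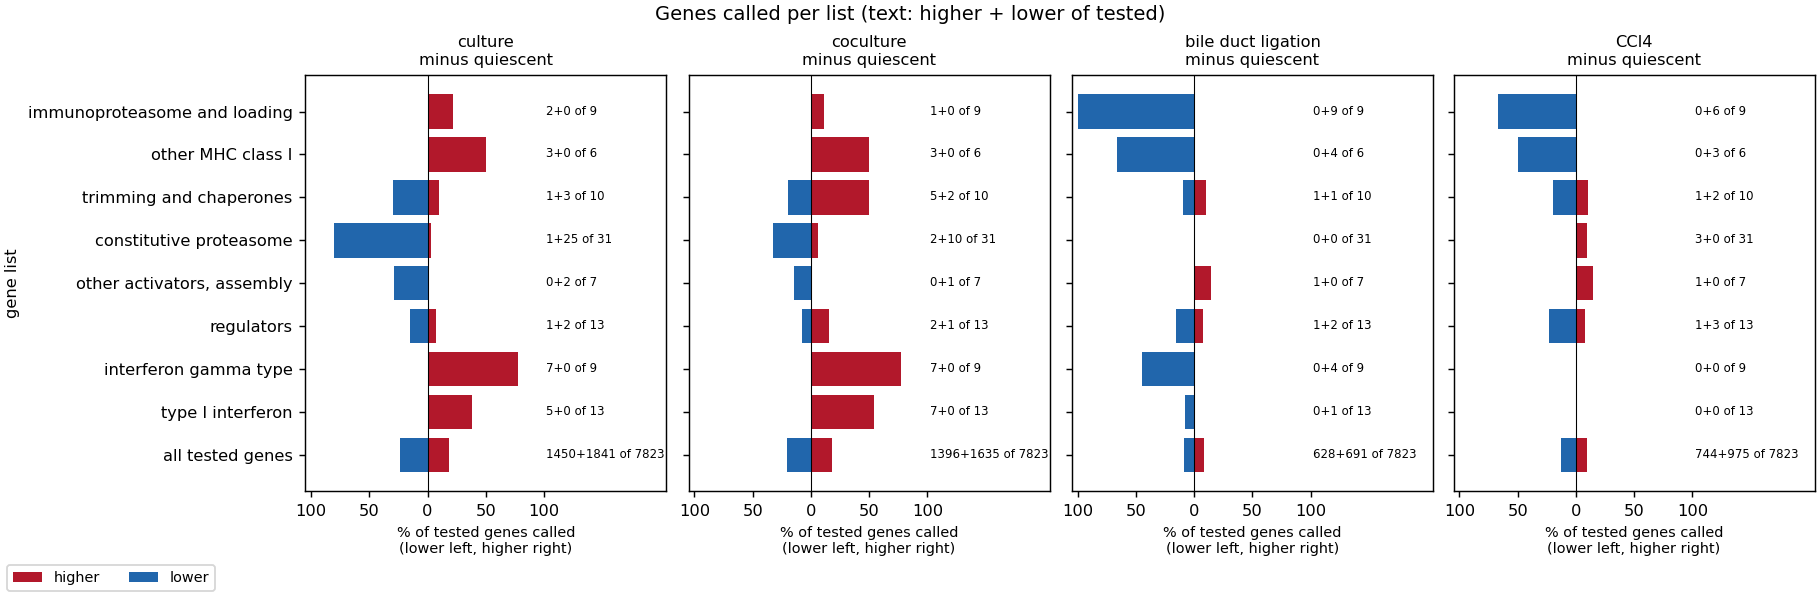
Bars give, for each gene list (rows) and comparison (panels), the percent of tested genes called higher (red, right) or lower (blue, left) by limma, with the numbers beside them. The immunoproteasome and loading genes have 9 of 9 lower after bile duct ligation and 6 of 9 after CCl4, where the constitutive proteasome has 0 of 31 lower.

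By distance to the median profile of the 9 genes over the 4 differences from quiescent cells (root mean square), the nearest genes outside the list were Lin54 (0.08), H2-M3 (0.12), Socs3 (0.13), Ly6e (0.15), Lipo3 (0.17), Mocos (0.18), Arhgap6 (0.19) and Lss (0.19). For Ly6e the differences were -0.10 in culture, 0.45 in coculture, -1.36 after bile duct ligation and -0.81 after CCl4. This is a description over 4 differences that share their quiescent arrays.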

How the data were processed

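RNA of 16 stellate cell preparations was measured on 1 array each. Each probe set has a deposited value on the log2 scale (0.04 to 13.88). The submitters' processing notes list GCRMA, with version and settings not given in the sources used here. GCRMA models background from probe sequence and normalises arrays by quantiles, so low folds depend on that model. Of 45101 probe sets, 34945 had 1 gene symbol. Probe sets with several or no symbols were left out. For genes with several, the brightest on average was kept.

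One model with 5 group means was fitted with limma 3.58.1 in R 4.3.3 (lmFit, eBayes with trend) to the 7823 genes at log2 5 or more on 2 arrays, with 8 contrasts, two-sided tests and Benjamini-Hochberg adjustment over all genes tested. The fit was tested on simulated data. Values are means ± SD and differences ± SE. Subunit differences were tested by exact permutation over arrays, going through every arrangement, in Python 3.11.15 with numpy 2.4.6. Promoter windows came from RefSeq GRCm38.p6. All genes listed, and the regulators and the constitutive counterparts, were reported by rule, with up to 4 called genes with large differences from each other list; values of markers and the second probe sets were added after they were seen. The members, lists and tests were chosen with earlier results of these data known. Alternatives were centring, filters, probe set averaging, no trend, array weights, fewer arrays, a replicate block and leaving out arrays. The number of arrays limits the precision.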

Additional observations from a re-analysis of the deposited data

Results flagged for a closer look

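Psme1 on quiescent replicate 5 (9.67) stood apart from the other 4 quiescent arrays, with a gap to the nearest array of 0.744 of the group's range, above Dixon's critical value of 0.71 for 5 samples. Chance gives such a gap in about 1 of 20 groups, and 12 quantities were examined in the quiescent group. The same array was the highest quiescent array for 6 of the 9 genes. Without it Psme1 was not called after CCl4 (-0.50, adjusted p = 0.067, limma).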

How the results depend on the processing

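Of 1776 values of the single genes under the alternatives, 1693 kept their direction where called and their side of the threshold, 71 were no longer called, 12 became called and 0 called values changed direction. Of the 9 genes, the number called in culture against quiescent cells was 2, and 1 without the trend in eBayes, 4 with array weights, 1 with the 3 arrays left out together (chosen after seeing the data) and 0 to 2 with 1 array left out (0 without quiescent replicate 3, culture replicate 1 or culture replicate 2). In coculture it was 1, and 2 in a fit of only the arrays compared. Leaving out 1 array gave 4 to 9 after bile duct ligation, 1 to 7 after CCl4 and 5 to 8 in coculture against the injury mean. The cause of these changes was not tested.

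Over all genes, the counts with 1 array left out were 1862 to 3130 in coculture against quiescent cells (3031 with all arrays), 784 to 1433 after bile duct ligation (1319), 878 to 1890 after CCl4 (1719), 446 to 1400 in coculture against culture (1205) and 1057 to 2613 in coculture against the injury mean (2374). Coculture against culture gave 601 in a fit of only the arrays compared. Between CCl4 and bile duct ligation 13 genes were called, and 4 with the filter at log2 7, 43 with no filter, 20 with the mean of all probe sets, 173 with array weights, 40 with only the arrays compared, 8 with the 3 arrays left out and 4 to 20 with 1 array left out.

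With the mean of all probe sets, Psmb8 relative to Psmb5 after bile duct ligation was -1.46 (exact permutation, adjusted p = 0.0714). With 1 array left out, where the permutation test could no longer pass, this difference was -2.53 to -1.87, Psmb9 relative to Psmb6 1.32 to 1.87 in culture, -2.23 to -1.51 after bile duct ligation and -2.12 to -1.20 after CCl4, and Psmb10 relative to Psmb7 -1.33 to -1.01 and -1.21 to -0.92 after the injuries.

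Same-numbered arrays did not deviate together throughout: the correlation of their deviations averaged 0.017 over 26 pairs (-0.259 to 0.537). The highest were the culture and coculture pairs, 0.309 for number 2 and 0.537 for number 3, and with these 2 pairs alone a shared origin was not established. With the replicate number as a block, 1 of the 9 genes was called in culture, 6 after bile duct ligation (Tap1, Tapbp and B2m lost), 3 after CCl4 (Psme1, Tap2 and Tapbp lost) and 0 between coculture and culture. Values near the array medians of 2.00 to 2.06 may be background, which limits Psmb9 and Nlrc5 after injury.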
